A study of Oryctolagus cuniculus with 12 samples.

Results

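The cartilage genes of the rabbit ear were examined in bulk RNA-seq of full thickness ear tissue. The set was named from knowledge of hyaline and elastic cartilage, with earlier results of these data known. It held COL2A1, COL9A1, COL9A2, COL9A3, COL11A2, ACAN, HAPLN1, MATN1, CHAD and SOX9. A gene was taken as a member where its symbol named a row of the expression table. Rows were found for 8 of the 10 listed genes among 29587 genes in all. COL9A3 and CHAD matched no row by symbol and were not analysed here.

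The study compared rabbit ear hypertrophic scar (HS) with normal ear skin (NS) and asked how treatment changed scar RNA. It used 12 samples in 4 groups of 3, from wild type female rabbits aged 10 to 12 weeks when obtained, with 3 rabbits in each group. NS ears were neither wounded nor treated. In the other groups, wounds of 7 mm in diameter, 4 on each ear, were made through the epidermis, the dermis and the perichondrium, the fibrous sheath that nourishes cartilage. HS lesions then received no treatment. In drug-loaded MNs, 1 patch of separating microneedles was pressed into each lesion. The patch carried a prodrug of 5-fluorouracil acetic acid (5-FuA), a derivative of 5-fluorouracil, in a gelatin-based hydrogel. In 5-Fu injection, each lesion was injected with 0.1 mL of free 5-fluorouracil (120 μg), an inhibitor of thymidylate synthesis. Both treatments were given on days 22, 29 and 36 after wounding, and tissue of the wounded groups was harvested on day 43. The sources used here do not say which lesions entered a sample, or how much cartilage was left on it. In such pooled RNA, fewer chondrocytes and less RNA per chondrocyte cannot be told apart.

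Cartilage is made by chondrocytes, which lie alone or in small groups in the matrix that they secrete. Type II collagen forms its fibrils, type XI collagen sits in their core and limits their width, and type IX collagen decorates their surface. Aggrecan, held on hyaluronan by link protein, draws in the water that lets the tissue resist compression, and SOX9 is the transcription factor that starts and maintains this program. In the ear, a sheet of elastic cartilage lies between the ventral and the dorsal skin, so that a full thickness piece of ear carries skin on both sides of it.

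Each sample held 10521472 to 14043667 reads on genes, as counted back from the deposited values. These values are FPKM, the fragments on a gene per kilobase of its length and scaled to library size, and 1 read on a gene of 1 kilobase was worth an FPKM of 0.0768 to 0.0972. All 8 members were above 0 in all 12 samples, and the smallest number of reads on any of them was 86, for SOX9 in 5-Fu injection replicate 2. The 8 members together took between 0.226% and 2.73% of the reads on genes of a sample. The label of cartilage therefore fitted the tissue of every group, since COL2A1, its defining collagen, had at least 247 FPKM in each sample. The row of MATN1 was the exception, as described after the other members.

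**Figure D1:**
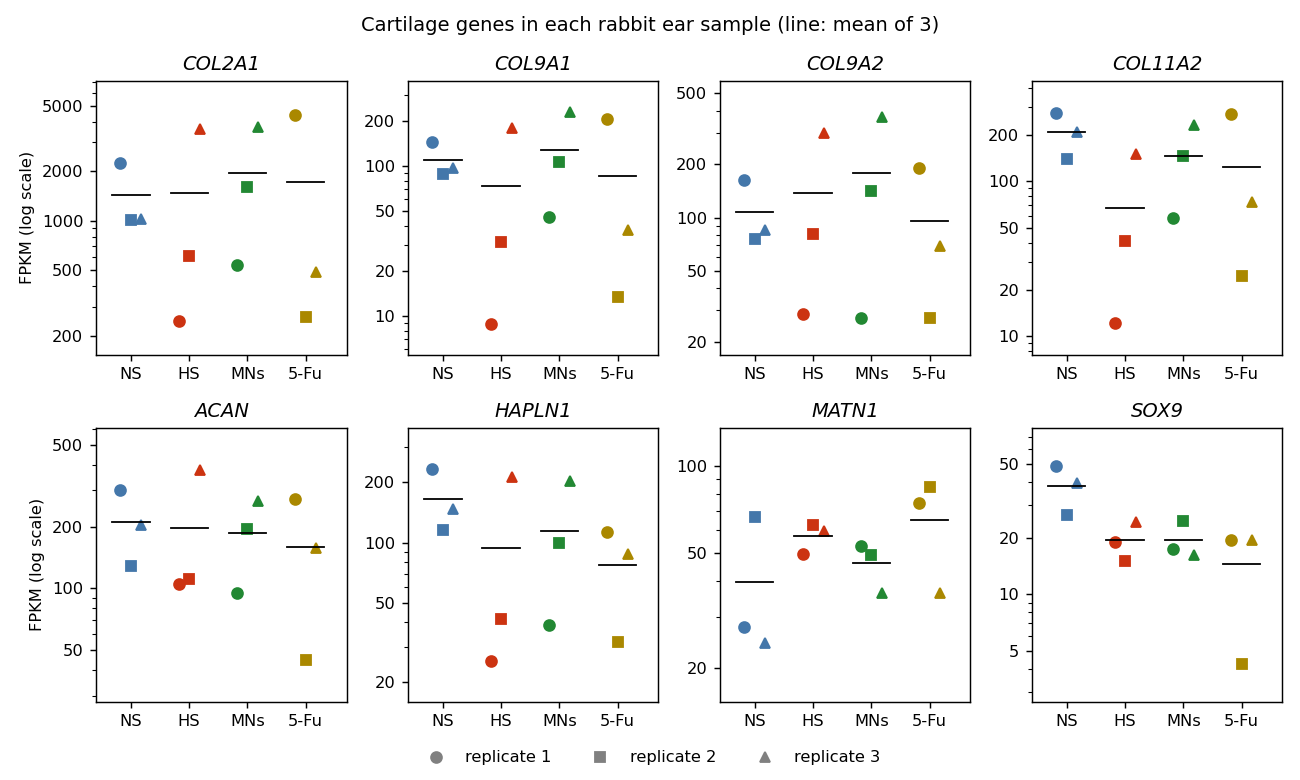
FPKM on a log scale (vertical) of the 8 cartilage genes in NS, HS, drug-loaded MNs (MNs) and 5-Fu injection (5-Fu), with a point for each sample, its shape for the replicate number and a line at the mean of 3. COL2A1 ran from 247 FPKM in HS replicate 1 to 4429 FPKM in 5-Fu injection replicate 1, and the same samples stood high or low for COL9A1, COL9A2, COL11A2, ACAN and HAPLN1.

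COL2A1 encodes the chain of type II collagen, the main fibrillar collagen of cartilage. The row of COL2A1 (ENSOCUG00000013629) lay on scaffold GL018949 at 72110 to 94586, on the minus strand. Its level was 2248, 1012 and 1034 FPKM in the 3 NS samples, and 247, 612 and 3607 FPKM in the 3 HS samples. It was 541, 1617 and 3738 FPKM in drug-loaded MNs, and 4429, 260 and 491 FPKM in 5-Fu injection. In each wounded group a single sample was above all NS samples and at least 1 was below all of them, so that the groups overlapped in full. The mean was 1431 ± 707 FPKM in NS, 1489 ± 1844 FPKM in HS, 1965 ± 1627 FPKM in drug-loaded MNs and 1727 ± 2343 FPKM in 5-Fu injection (SD, n = 3 each). In the 3 wounded groups the highest sample exceeded the lowest 14.6-fold, 6.91-fold and 17.1-fold, in that order of groups, against 2.22-fold in NS. No neighbours in the order of these means differed beyond their SD. On the log2 scale that limma tested, COL2A1 in HS lay 0.70 below NS, against a mean FPKM that was slightly above it, with a 95% interval of the difference from -3.23 to 1.83 (adjusted p = 0.757).

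COL9A1 and COL9A2 encode chains of type IX collagen. The row of COL9A1 (ENSOCUG00000012367, chromosome 12, 56888867 to 56995534, minus strand) held 145, 88.6 and 97.4 FPKM in NS and 8.85, 31.2 and 180 FPKM in HS. In drug-loaded MNs it held 46.1, 107 and 231 FPKM, and in 5-Fu injection 207, 13.4 and 37.7 FPKM. HS replicate 3, drug-loaded MNs replicate 3 and 5-Fu injection replicate 1 were again the high samples, and HS replicate 1 was the lowest of the 12. The row of COL9A2 (ENSOCUG00000015838, chromosome 13, 126189203 to 126198465, plus strand) held 164, 75.6 and 84.8 FPKM in NS and 28.7, 80.4 and 301 FPKM in HS. It held 27.1, 141 and 367 FPKM in drug-loaded MNs and 191, 27.2 and 68.8 FPKM in 5-Fu injection. No wounded group was separated from NS for either chain.

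COL11A2 encodes a chain of type XI collagen. Its row (ENSOCUG00000016497) lay on chromosome 12 at 23591167 to 23618320, on the minus strand. It held 277, 138 and 209 FPKM in NS and 12.2, 41.1 and 150 FPKM in HS. It held 58.1, 145 and 230 FPKM in drug-loaded MNs and 273, 24.4 and 73.5 FPKM in 5-Fu injection. HS replicates 1 and 2 lay far below NS, while HS replicate 3, at 150 FPKM, passed the lowest NS sample. The mean was 208 ± 69.1 FPKM in NS and 67.7 ± 72.5 FPKM in HS (SD, n = 3 each).

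ACAN encodes aggrecan, the large chondroitin sulfate proteoglycan of cartilage, and HAPLN1 the link protein that fixes it to hyaluronan. The row of ACAN (ENSOCUG00000022093, scaffold GL018934, 63092 to 95251, minus strand) held 301, 129 and 203 FPKM in NS, 105, 111 and 377 FPKM in HS, 95.5, 195 and 265 FPKM in drug-loaded MNs, and 273, 44.9 and 156 FPKM in 5-Fu injection. Its highest value was that of HS replicate 3 and its lowest that of 5-Fu injection replicate 2, with overlap between all groups. The row of HAPLN1 (ENSOCUG00000002630, chromosome 11, 3881315 to 3959066, minus strand) held 233, 116 and 147 FPKM in NS, 25.6, 41.5 and 213 FPKM in HS, 38.8, 99.5 and 204 FPKM in drug-loaded MNs, and 113, 31.8 and 88.0 FPKM in 5-Fu injection. All 3 samples of 5-Fu injection lay below the lowest NS sample for HAPLN1, by a narrow margin at 113 against 116 FPKM.

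SOX9 encodes the transcription factor of the chondrocyte program, and is also expressed in hair follicles and other epithelia. The row of SOX9 (ENSOCUG00000011639, chromosome 19, 55820163 to 55823755, plus strand) held 48.7, 26.7 and 39.6 FPKM in NS and 19.0, 15.1 and 24.5 FPKM in HS. It held 17.6, 24.6 and 16.4 FPKM in drug-loaded MNs and 19.6, 4.25 and 19.5 FPKM in 5-Fu injection. All 9 samples of the wounded groups lay below the lowest NS sample, which no other member showed. The share of all genes tested with this pattern was not counted. Taken in pairs with NS, groups did not overlap for 33.3% (HS), 20.6% (drug-loaded MNs) and 18.8% (5-Fu injection) of the 13287 genes tested. The mean was 38.3 ± 11.1 FPKM in NS, 19.6 ± 4.75 FPKM in HS, 19.5 ± 4.46 FPKM in drug-loaded MNs and 14.5 ± 8.85 FPKM in 5-Fu injection (SD, n = 3 each).

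Over the 12 samples, the members could be ordered by FPKM, which allows for gene length. COL2A1 came first with a mean of 1653 ± 1496 FPKM, followed by ACAN with 188 ± 99.3 FPKM, COL11A2 with 136 ± 95.3 FPKM, COL9A2 with 130 ± 110.0 FPKM, HAPLN1 with 113 ± 73.6 FPKM, COL9A1 with 99.3 ± 76.5 FPKM, MATN1 with 52.0 ± 18.6 FPKM and SOX9 with 23.0 ± 11.6 FPKM (SD, n = 12). Neighbours in this order from ACAN to COL9A1 differed by less than their SD.

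The spread between samples of a group was much wider for these genes than for most others. The SD within groups of log2(FPKM + 1) was 1.65 for COL2A1, 1.56 for COL9A1, 1.47 for COL9A2, 1.35 for COL11A2, 1.12 for HAPLN1 and 0.97 for ACAN, where the median of all 13287 genes tested was 0.28. An SD at least as large as that of COL2A1 was found in 0.474% of the genes tested, and one at least as large as that of ACAN in 3.20%. SOX9, with 0.65, and MATN1, with 0.53, varied less, and 9.60% and 15.2% of the genes tested had an SD at least as large. Differences between the 4 groups took up 7.77% of the variance of COL2A1, 3.97% of that of COL9A2, 8.57% of that of ACAN, 21.4% of that of COL9A1, 24.7% of that of HAPLN1 and 35.2% of that of COL11A2, against a median of 41.6% over all genes tested. SOX9 was the only member above that median, with 52.2%.

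The same samples were high for most members. In NS, replicate 1 was the highest and replicate 2 the lowest of the group for 7 of the 8 members. In HS, replicate 3 was the highest for 7 members and replicate 1 the lowest for 7. In drug-loaded MNs, replicate 3 was the highest for 6 members and replicate 1 the lowest for 6, and in 5-Fu injection, replicate 1 was the highest for 7 and replicate 2 the lowest for 7. The share of reads on the members followed the same samples. It was 1.94%, 0.956% and 1.00% in NS, 0.229%, 0.428% and 2.08% in HS, 0.441%, 1.18% and 2.34% in drug-loaded MNs, and 2.73%, 0.226% and 0.484% in 5-Fu injection. The summed FPKM of the members spanned a 2.08-fold range in NS, a 9.91-fold range in HS, a 5.80-fold range in drug-loaded MNs and an 11.4-fold range in 5-Fu injection.

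**Figure D2:**
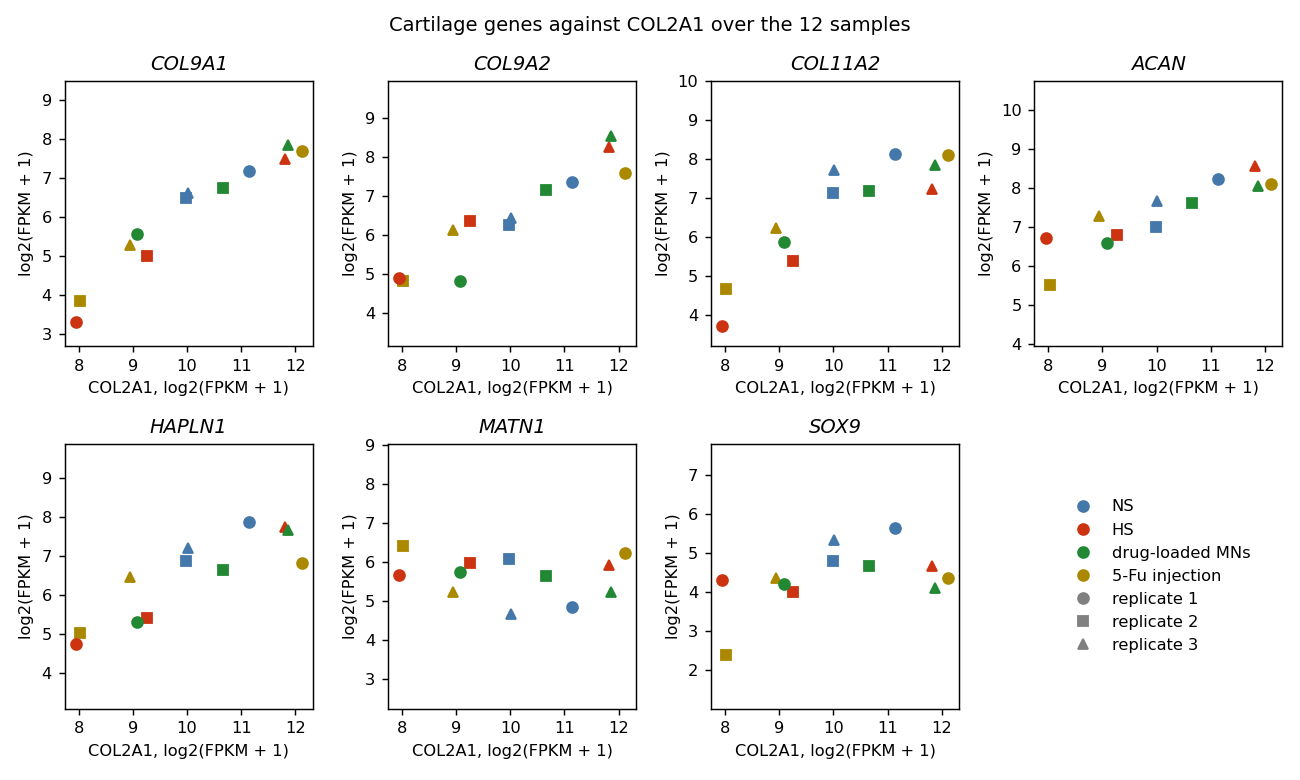
Level of the other 7 cartilage genes (vertical, log2(FPKM + 1)) against that of COL2A1 (horizontal, same scale), with a point for each of the 12 samples, its colour for the group and its shape for the replicate number. COL9A1 (r = 0.96), COL9A2 (0.94), COL11A2 (0.89), ACAN (0.89) and HAPLN1 (0.86) rose with COL2A1, and the relations of SOX9 (0.47) and MATN1 (-0.16) did not pass the permutation test.

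The relation to COL2A1 was computed for the other 7 members over the 12 samples on log2(FPKM + 1), with permutation p-values adjusted over the 7 relations. For COL9A1, Pearson's r was 0.96 and Spearman's rho 0.97 (permutation adjusted p = 7e-05 for each, from the smallest p that 100000 permutations can give, 1e-05). For COL9A2, r was 0.94 and rho 0.92 (permutation adjusted p = 0.00014 and 0.000245). For COL11A2, r was 0.89 and rho 0.90 (permutation adjusted p = 0.000192 and 0.000583). For ACAN, r was 0.89 and rho 0.87 (permutation adjusted p = 0.000192 and 0.00098). For HAPLN1, r was 0.86 and rho 0.81 (permutation adjusted p = 0.000952 and 0.00319). The unadjusted permutation p of r for these 5 genes ran from 1e-05 to 0.00068. These 5 genes therefore rose and fell with COL2A1 from sample to sample. SOX9 had r = 0.47 and rho = 0.41 (permutation p = 0.113 and 0.194, adjusted 0.131 and 0.226), which did not pass. MATN1 had r = -0.16 and rho = -0.15 (permutation p = 0.609 and 0.634, which were also the adjusted values).

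Without the 2 samples farthest from the median of COL2A1, which were 5-Fu injection replicate 1 and HS replicate 1, r was 0.97 for COL9A1, 0.94 for COL9A2, 0.85 for COL11A2, 0.91 for ACAN and 0.89 for HAPLN1. It was 0.59 for SOX9 and -0.40 for MATN1. After each sample was taken relative to the mean of its own group, r with COL2A1 was 0.98 for COL9A1, 0.95 for COL9A2, 0.97 for COL11A2, 0.91 for ACAN and 0.90 for HAPLN1. The relation thus held within groups. Among the 15 pairs of these 6 genes, r over all samples ran from 0.80 to 0.96. For each unit of log2 COL2A1, COL9A1 moved by 0.99 units, COL11A2 by 0.87, COL9A2 by 0.82, HAPLN1 by 0.65 and ACAN by 0.52, so that ACAN and HAPLN1 spanned a narrower range than the collagens.

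Other genes of the ear shared this pattern. By Pearson's r over the 12 samples to the mean of the 8 scaled members, the closest of 9442 other genes with a symbol were CNMD (0.94), the cartilage protein chondromodulin, S100A1 (0.94), a calcium-binding protein, and UNC5C (0.91), a netrin receptor. FOXA3 and ST14 (0.89 each), KCNA6 (0.89), ANGPTL5 (0.88), PAPSS2 (0.88), CRISPLD1 (0.87) and TST (0.87) followed, among which PAPSS2 makes the sulfate donor used for chondroitin sulfate. CNMD had 62.5, 108 and 114 FPKM as its lowest, median and highest values in NS, and 21.0, 50.6 and 180 FPKM in HS, with HS replicate 3 the high sample. These r describe the ranking over samples that share libraries and carry no test.

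The MATN1 row did not follow the other members. MATN1 encodes matrilin 1, a matrix protein of cartilage. Its row (ENSOCUG00000008153, chromosome 13, 135407824 to 135450441, plus strand) held 27.7, 66.5 and 24.5 FPKM in NS, 49.7, 62.4 and 59.7 FPKM in HS, 53.0, 49.1 and 36.5 FPKM in drug-loaded MNs, and 74.5, 84.6 and 36.5 FPKM in 5-Fu injection. Within NS and within 5-Fu injection it was highest in replicate 2, where the 7 other members were lowest in their group. The inverse order was not complete. 5-Fu injection replicate 1, where the 7 others were highest in the group, held 74.5 FPKM, above all NS samples. In HS the MATN1 row was lowest in replicate 1, as most members were. The r of this row with the other members ran from -0.68 with SOX9 to -0.16 with COL2A1.

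The genes closest to the MATN1 row over the 12 samples were MPEG1 (r = 0.93), CYTH4 (0.92), PIK3AP1 (0.92), INPP5D (0.91), GRN (0.90), FYN (0.90), TLR1 (0.90), SLC7A7 (0.89), EMP3 (0.89) and C5AR1 (0.89). MPEG1, a pore-forming protein of macrophages, TLR1, a receptor for bacterial lipopeptides, and C5AR1, the receptor of complement C5a, are known from myeloid cells. The row spans 42618 bases with a counted length of 4829 bases, and the nearest named protein coding genes on either side in the deposited table are SDC3 and PTPRU. In the gene order of the RefSeq assembly mOryCun1.1, LAPTM5, a lysosomal membrane gene of leukocytes, lies between SDC3 and MATN1, and no row carried its symbol here. Whether the MATN1 row counted reads of LAPTM5 was not tested, and the row is given as uncertain.

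HS was compared with NS to ask what scarring changes in ear RNA. A gene was called a DEG where limma, run on log2(FPKM + 1), gave it a log2 fold change beyond 1 in either direction with an adjusted p under 0.05. That scale understates changes of low genes. None of the 8 members was called in HS versus NS by limma (0 of 8), where 5.00% of the 13287 genes tested were. At an unadjusted p under 0.05, 1 member passed in limma, COL11A2, beside 23.4% of all genes tested. Limma voom on the reads counted back called 0 members, with 3 at an unadjusted p under 0.05 (COL11A2, HAPLN1 and SOX9). In voom the median of all genes tested was -0.38, with 331 DEGs higher and 884 lower. Shares of all genes at an unadjusted p, here and below, are those of limma on FPKM and were not counted for voom. COL11A2 was 2.20 lower in HS on the log2 scale (SE 0.94, 95% interval from -4.27 to -0.13, limma adjusted p = 0.187), and was lower in HS in 2 of 3 samples than in any NS sample. SOX9 was 0.92 lower (SE 0.46, interval from -1.93 to 0.09, limma adjusted p = 0.258), and was the 1 member whose groups did not overlap, as was so for 33.3% of all genes tested. COL9A1 differed by -1.49 (interval from -3.88 to 0.89), HAPLN1 by -1.35 (-3.08 to 0.37), COL9A2 by -0.19 (-2.44 to 2.06), ACAN by -0.28 (-1.77 to 1.22) and MATN1 by 0.66 (-0.17 to 1.49). The sign was negative for 7 of 8 members, with a median of -0.81 against -0.013 over all genes tested. Most members rose and fell together from sample to sample, so these signs were not separate results. Without HS replicate 1, COL2A1 (0.16), COL9A2 (0.61) and ACAN (0.042) turned positive. COL9A2, like COL2A1, had the higher mean FPKM in HS (137 against 108) despite its negative log2 difference. The lower ends of the intervals of COL2A1, COL9A1 and COL11A2, at -3.23, -3.88 and -4.27, allowed large falls, and those of COL2A1 and COL9A1 allowed a rise as well.

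**Figure D3:**
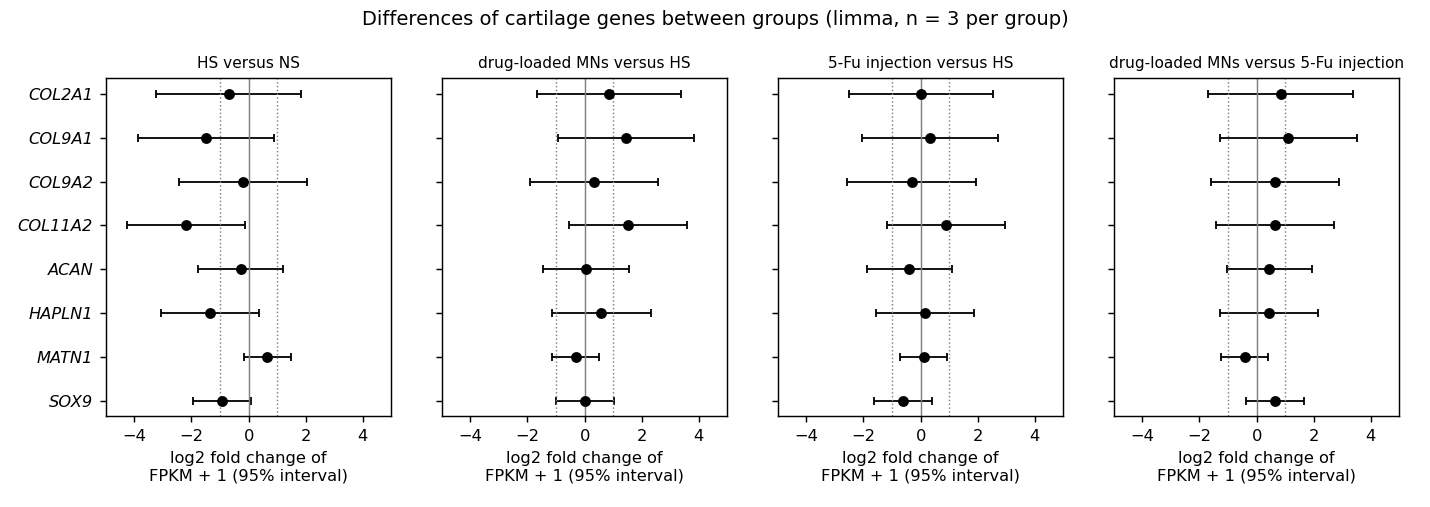
Log2 fold change of FPKM + 1 (horizontal) with its 95% interval for each of the 8 cartilage genes in the 4 comparisons, from limma with 3 samples in each group. Only the interval of COL11A2 in HS versus NS, from -4.27 to -0.13, lay wholly on 1 side of 0, and its adjusted p was 0.187.

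The deposited FPKM were scaled between samples by more than the total of reads, and this bears on the sign of small differences. Relative to the reads counted on genes, the library size inside the FPKM was 1.12-fold to 1.20-fold in NS and 0.873-fold to 0.932-fold in HS. With values scaled to the total of reads on genes instead, the median difference of all genes tested in HS versus NS was -0.33, and DEGs went from 469 higher and 196 lower to 311 higher and 749 lower. COL11A2 then differed by -2.56 (limma adjusted p = 0.0703), SOX9 by -1.27 (0.074), HAPLN1 by -1.71 (0.124) and COL2A1 by -1.06 (0.502), and 0 members were called. In 5-Fu injection versus HS the same change gave 125 higher and 160 lower DEGs in place of 68 and 236, with a median of 0.13. Between drug-loaded MNs and NS it gave 66 and 20 in place of 105 and 11, with a median of -0.19.

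Each treatment was set against HS to ask what it changed in the scar, so that both comparisons share the 3 HS samples. After drug-loaded MNs, 0 of 8 members were called by limma, beside 0.00753% of all genes tested, and 0 passed an unadjusted p under 0.05 (8.90% of all genes) in limma or in voom. The log2 difference was 0.86 for COL2A1 (interval from -1.67 to 3.39), 1.45 for COL9A1 (-0.93 to 3.84), 0.33 for COL9A2 (-1.91 to 2.58), 1.53 for COL11A2 (-0.54 to 3.60), 0.59 for HAPLN1 (-1.14 to 2.31), 0.054 for ACAN (-1.44 to 1.55), 0.0022 for SOX9 (-1.01 to 1.01) and -0.32 for MATN1 (-1.14 to 0.51), with limma adjusted p from 0.668 to 0.999. All 8 members overlapped between these groups, whereas 18.9% of all genes tested did not.

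In 5-Fu injection versus HS, 0 of 8 members were called by limma, beside 2.29% of all genes tested, and 0 passed an unadjusted p under 0.05 (26.0% of all genes) in limma or in voom. The log2 difference was 0.017 for COL2A1 (interval from -2.51 to 2.55), 0.34 for COL9A1 (-2.05 to 2.72), -0.32 for COL9A2 (-2.56 to 1.93), 0.88 for COL11A2 (-1.19 to 2.95), 0.15 for HAPLN1 (-1.57 to 1.88), -0.39 for ACAN (-1.89 to 1.10), -0.63 for SOX9 (-1.64 to 0.38) and 0.10 for MATN1 (-0.72 to 0.93), with limma adjusted p from 0.409 to 0.994. All 8 members overlapped here as well, whereas 30.3% of all genes tested did not.

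Drug-loaded MNs versus 5-Fu injection set the patch against the injection. These differed in the drug (a prodrug of 5-FuA against 5-fluorouracil) and its carrier as well as in the route. Again 0 of 8 members were called by limma, beside 0.00% of all genes tested, and 0 passed an unadjusted p under 0.05 (15.1% of all genes) in limma or in voom. The log2 differences ran from -0.42 for MATN1 to 1.12 for COL9A1, and that of COL2A1 was 0.84 (interval from -1.69 to 3.37). The smallest limma adjusted p was 0.528, for SOX9, at 0.63 higher in drug-loaded MNs (interval from -0.38 to 1.64). All 8 members overlapped, and 17.1% of all genes tested did not.

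Against NS, 0 of 8 members were called by limma in drug-loaded MNs (0.873% of all genes tested) and 0 in 5-Fu injection (0.00753%). The share for drug-loaded MNs stands for 116 DEGs, of which the count was 0 without NS replicate 2, 6 without NS replicate 1 and 4 without drug-loaded MNs replicate 3. Between drug-loaded MNs and NS, 0 members passed an unadjusted p under 0.05 in limma (12.9% of all genes) and 1 in voom, and in 5-Fu injection versus NS, 1 passed in each (14.9% of all genes). That member was SOX9, at 1.55 lower in 5-Fu injection than in NS (SE 0.46, interval from -2.56 to -0.54, limma adjusted p = 0.204). SOX9 in drug-loaded MNs was 0.92 below NS (interval from -1.93 to 0.09, limma adjusted p = 0.434). Groups did not overlap for 1 member in drug-loaded MNs versus NS (SOX9, 20.6% of all genes) and for 2 in 5-Fu injection versus NS (SOX9 and HAPLN1, 18.8%). These comparisons and that of HS all use the same 3 NS samples.

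Taken relative to COL2A1 in the same sample, the other collagens among the members were less variable. COL11A2 was 12.3% to 20.2% of the FPKM of COL2A1 in the 3 NS samples and 4.15% to 6.71% in the 3 HS samples. It was 6.16% to 10.7% in drug-loaded MNs, also below all NS samples, and 6.17% to 15.0% in 5-Fu injection. All 3 HS samples, the high replicate 3 included, thus had less COL11A2 for their COL2A1 than the other samples, except for drug-loaded MNs replicate 3 and 5-Fu injection replicate 1. COL9A1 was 6.43% to 9.41% of COL2A1 in NS and 3.59% to 5.10% in HS, also without overlap. COL9A2 went the other way, at 7.28% to 8.20% in NS and 8.35% to 13.1% in HS. These 3 of the 7 other members did not overlap between HS and NS in this ratio. Of all other genes tested, 2.41% did not overlap in it, against 33.3% of all genes tested by FPKM. Dividing by COL2A1 adds its spread to any gene that does not follow it. The 2.41% is thus no like background for members that do. ACAN was 12.7% to 19.6% of COL2A1 in NS and 10.5% to 42.6% in HS, and HAPLN1 was 10.4% to 14.2% in NS and 5.91% to 10.4% in HS. Both overlapped between HS and NS, HAPLN1 only at the edge. In drug-loaded MNs, HAPLN1 was 5.45% to 7.18% of COL2A1, below all NS samples. COL11A1, a collagen gene from the cartilage lists below and not a member, went against COL11A2. It was 7.44% to 13.7% of COL2A1 in NS and 16.1% to 116% in HS, without overlap. Its ratio spanned a 25.3-fold range over the 12 samples. Among the other matrix genes and transcription factors of those lists, CLEC3A, FRZB and SOX6 were lower in HS without overlap, as COL11A2 was. MATN4, EPYC, SCRG1 and FMOD were higher in HS without overlap, and the rest overlapped.

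**Figure D4:**
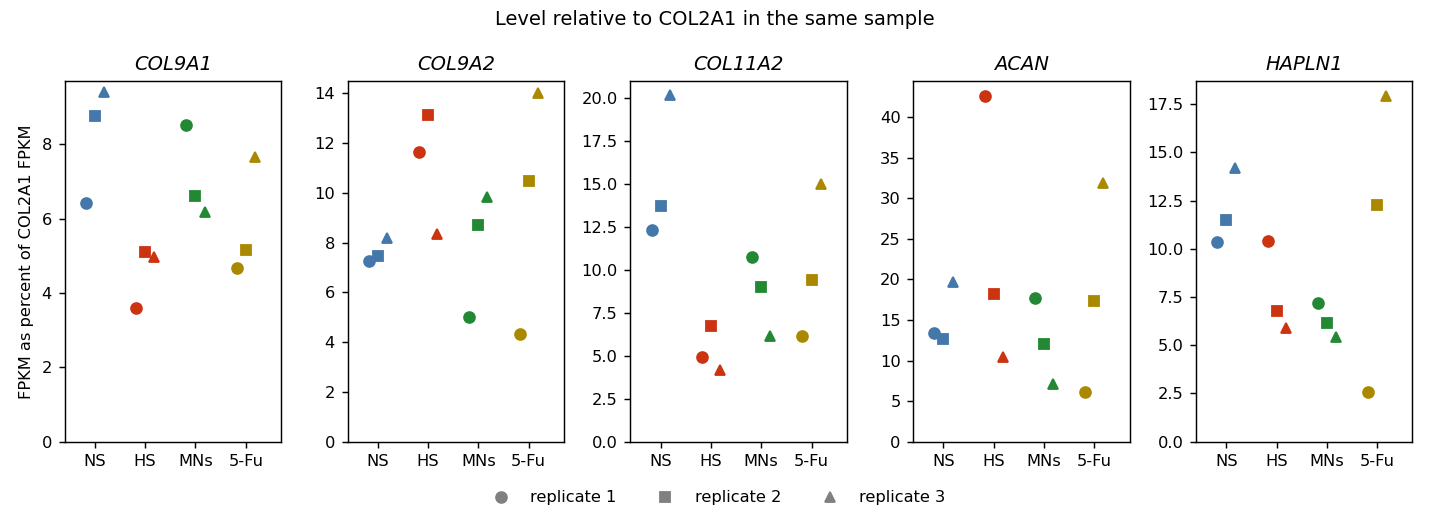
FPKM of 5 cartilage genes as a percent of the FPKM of COL2A1 in the same sample (vertical), with a point for each sample and its shape for the replicate number, in NS, HS, drug-loaded MNs (MNs) and 5-Fu injection (5-Fu). COL11A2 was 12.3% to 20.2% in NS and 4.15% to 6.71% in HS, and COL9A1 was 6.43% to 9.41% in NS and 3.59% to 5.10% in HS.

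A fit of limma with the level of COL2A1 as a covariate, chosen after the data had been seen, tested the difference at equal COL2A1. COL11A2 was then 1.64 lower in HS than in NS on the log2 scale (SE 0.26, interval from -2.21 to -1.07, limma adjusted p = 0.00598), and was called. It was the 1 called of the 7 other members, beside 4.81% of all genes in that fit. COL9A1 was 0.84 lower (SE 0.22, interval from -1.33 to -0.35, limma adjusted p = 0.0498), under the fold threshold. HAPLN1 was 0.92 lower (limma adjusted p = 0.174), SOX9 0.77 lower (0.307), MATN1 0.65 higher (0.374), COL9A2 0.40 higher (0.554) and ACAN 0.10 higher (0.889). The covariate removed the sample-to-sample level that the collagens among the members share, and what set that level in each sample was not tested.

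The other genes of cartilage were taken from 6 lists, of which 65 of 80 genes had a row and 58 were tested. In HS versus NS, 7 of these 58 were called higher (3.53% of all genes tested) and 3 lower (1.48%), and the median log2 fold change was 0.27 against -0.013 over all genes tested. These 10 calls were 6 without NS replicate 1 or without HS replicate 2. Among 14 other matrix genes of cartilage, MATN4, a matrilin, was higher at 20.7 FPKM in HS against 3.61 FPKM in NS (log2 fold change 2.31, SE 0.46, limma adjusted p = 0.014), EPYC, the small proteoglycan epiphycan, was higher at 47.6 against 2.83 FPKM (3.31, SE 0.71, 0.0186), and CRTAC1, a secreted matrix protein of chondrocytes, was lower at 5.47 against 13.4 FPKM (-1.13, SE 0.21, 0.0101). The other 11 did not pass.

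Of 6 transcription factors and partners tested, SOX6, which acts with SOX9, was lower in HS at 0.765 against 3.21 FPKM (-1.22, limma adjusted p = 0.041), and RUNX2, the factor of chondrocyte hypertrophy and of bone, was higher at 6.25 against 1.50 FPKM (1.56, 0.0052). Of 15 genes of chondroitin sulfate synthesis, CHST3, a sulfotransferase, was lower at 12.0 against 48.7 FPKM (-1.86, limma adjusted p = 0.0181), and the other 14 did not pass. None of the 8 growth signalling genes was called by limma. Of 7 genes of hypertrophic and calcifying cartilage, 1 was called, MMP13, the collagenase that cleaves type II collagen, at 32.8 against 1.00 FPKM (4.01, limma adjusted p = 0.0128).

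The list of cartilage matrix proteases had the most calls, with 4 of 9 higher and 0 lower and a median of 1.59. These were MMP13, HTRA1, a serine protease, at 2670 against 459 FPKM (2.44, limma adjusted p = 0.00544), ADAMTS5, an aggrecanase, at 12.0 against 2.89 FPKM (1.75, 0.00379), and CTSK, the protease cathepsin K, at 793 against 256 FPKM (1.65, 0.0156). Fibroblasts and macrophages also make these proteases, so the list is not particular to cartilage.

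**Figure D5:**
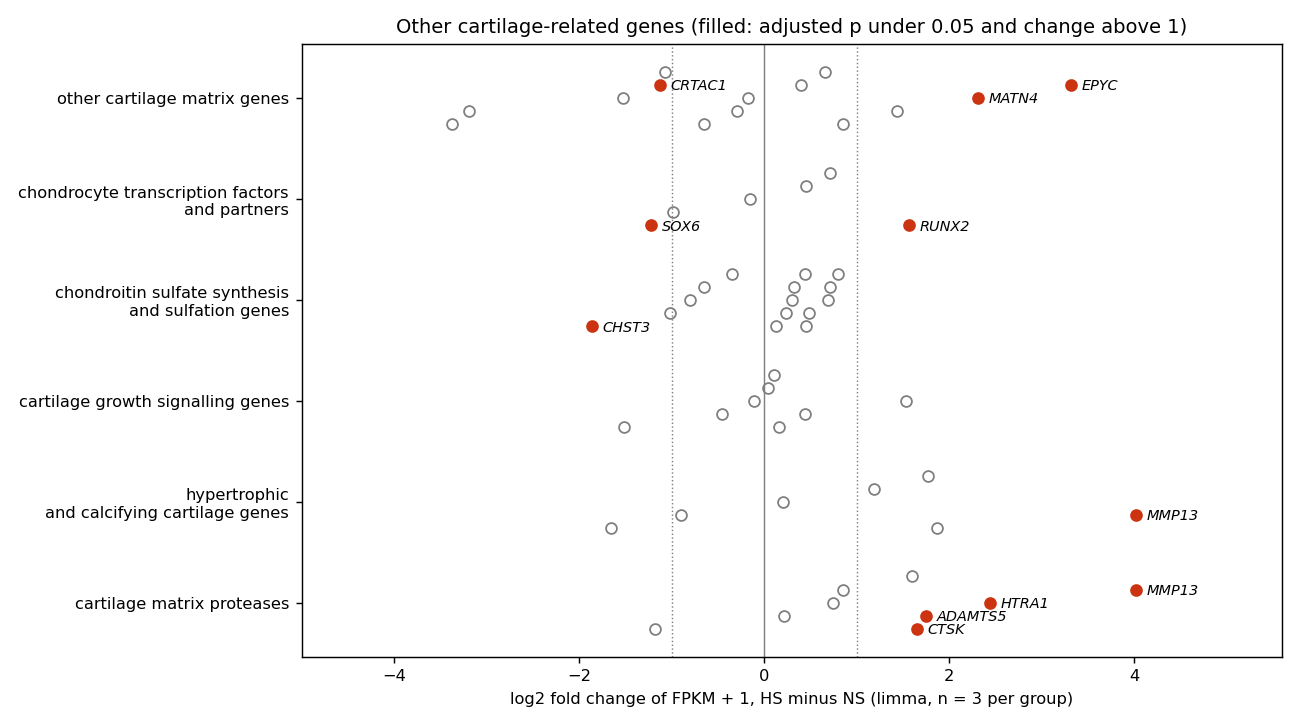
Log2 fold change of FPKM + 1 in HS minus NS (horizontal) of the tested genes of 6 lists related to cartilage, with a point for each gene and called DEGs filled and named (limma, n = 3 per group). The 4 called proteases lay between 1.65 and 4.01, and CHST3, SOX6 and CRTAC1 between -1.86 and -1.13.

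Against HS, 0 of the 58 genes were called in drug-loaded MNs (limma). In 5-Fu injection, 0 were called higher (0.512% of all genes tested) and 3 lower (1.78%), namely MATN4 (-1.99, limma adjusted p = 0.0408), RUNX2 (-1.10, 0.0387) and ADAMTS5 (-1.09, 0.0438). These 3 calls were 0 without NS replicate 1, any of the 3 HS samples, drug-loaded MNs replicate 2, or 5-Fu injection replicate 1 or 3, and 5 without 5-Fu injection replicate 2. In drug-loaded MNs versus 5-Fu injection, 0 were called. The median of the 58 was -0.20 in drug-loaded MNs versus HS and -0.35 in 5-Fu injection versus HS.

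Markers of other cells of the ear moved between groups as well. For the counts that follow, 3.53% of all genes tested were called higher and 1.48% lower in HS versus NS. In 5-Fu injection versus HS these shares were 0.512% higher and 1.78% lower. Of the dermal fibroblast collagens, 4 of 4 tested were called higher in HS than in NS, and their share of reads was 1.09% to 1.51% in NS, 15.2% to 19.8% in HS, 7.93% to 12.0% in drug-loaded MNs and 1.90% to 11.3% in 5-Fu injection. In 5-Fu injection the sample lowest in cartilage genes, replicate 2, had the 11.3%, and replicate 1, the highest in cartilage genes, the 1.90%. In drug-loaded MNs the order was also inverse, with cartilage genes at 0.441% of reads beside 12.0%, 1.18% beside 10.4%, and 2.34% beside 7.93%. In HS the cartilage genes took 0.229% of reads where the collagens took 15.2%, 0.428% beside 19.8%, and 2.08% beside 17.3%, with no such order. Of tendon and perichondrium markers, 3 of 5 were called higher in HS (TNMD, POSTN and PRRX1), and their share of reads was 0.0411% to 0.0478% in NS and 0.0912% to 0.215% in HS. Of elastic fibre genes, 4 of 6 were called higher. Of keratinocyte markers, 2 of 5 were called lower (KRT5 and KRT15). Of the Schwann cell markers SOX10 and S100B, SOX10 was called lower, at 8.36 to 12.4 FPKM in HS against 28.9 to 60.1 FPKM in NS (log2 fold change -1.77, limma adjusted p = 0.0115). S100B, which chondrocytes also make, differed by -2.43 (limma adjusted p = 0.087), and neither overlapped between HS and NS. Of hair follicle and gland markers, 1 of 5 was called higher (LGR5), and their share of reads was 0.00563% to 0.0572% in NS and 0.0136% to 0.121% in HS. Of 3 skeletal muscle, 2 adipocyte and 5 endothelial markers tested, 0 were called by limma. In 5-Fu injection versus HS, where MATN4, RUNX2 and ADAMTS5 were called lower, so were 3 of 4 dermal fibroblast collagens (COL1A1, COL3A1 and COL5A2), 4 of 6 elastic fibre genes (FBN1, FBLN5, MFAP4 and EMILIN1), 1 of 5 tendon and perichondrium markers (PRRX1) and 1 of 5 hair follicle and gland markers (LGR5), and 1 of 5 keratinocyte markers was called higher (KRT15). None of these lists had all its members at 0 in a sample. The part of these cells in the levels of the cartilage genes and of the genes called from the cartilage lists was not tested.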

How the data were processed

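RNA of full thickness ear from rabbits was sequenced in 12 samples, placed in 4 groups of 3 by their labels. FPKM values, with gene symbols and positions for 29587 genes, were deposited by the authors as 1 table. The aligner, the counter and the genome build are not given in the sources used here. Within each sample, 100% of the values times gene length were whole multiples of a step (tolerance 0.02 reads), so that reads were counted back. Value columns of other samples numbered 0.

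The members and lists were chosen with earlier results of these data known. Genes named from the lists were those called, at most 4 for each list and comparison, and those named for their ratio to COL2A1. The genes most like the members were the 10 highest by Pearson's r. Of the Schwann cell list, SOX10 and S100B are given and the rest is not reported here. MATN1 neighbours and overlaps were described after values had been seen.

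Groups were compared with limma 3.58.1 in R 4.3.3, in 1 linear model of log2(FPKM + 1) for all 12 samples with a mean-variance trend. The pseudocount was 1. Genes entered the test at a mean FPKM of 1 or more, which left 13287, all 8 members among them. P-values were Benjamini-Hochberg adjusted over these genes within each of 6 comparisons. Correlations were tested by 100000 permutations (two-sided) in SciPy 1.17.1. DESeq2 was run on counts by the authors and was not run here. The limma fit was also run on simulated counts that gave all genes the same setting of spread. That run does not tell how the fit performs for genes as variable as the members. With 3 separate rabbits in each group, replicate numbers do not pair samples. The limma p-values set a difference between groups against the spread between samples within groups.

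Alternatives were a pseudocount of 0.1, no filter, a mean FPKM of at least 5, quantile and upper quartile scaling, limma voom on the reads, scaling to the total of reads, no trend, only the groups compared, adjusted p alone, the replicate number as a block, and each sample left out. The COL2A1 covariate and a mean profile without MATN1 were added after seeing the data. No reference sequence was used here.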

Additional observations from a re-analysis of the deposited data

How the results depend on the processing

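In the limma fit, 0 of 8 cartilage genes were called in each of the 6 comparisons, and the count was also 0 under every alternative named above and with each sample left out, except for the COL2A1 covariate added after seeing the data, which called 1 gene in HS versus NS. Of 1146 values of a gene in a comparison under an alternative, 70 turned sign, 54 of them with a sample left out, and 1 became called, COL11A2 in HS versus NS (-1.64). Without 5-Fu injection replicate 2, SOX9 in HS versus NS kept its log2 fold change of -0.92 and reached a limma adjusted p of 0.0456, short of the fold a call needs. With the replicate block, all 6 counts stayed at 0 and no sign turned. The mean correlation of the deviations of same-numbered samples ran from -0.19 to 0.12 over the comparisons. Single values ran from -0.27 (drug-loaded MNs versus NS) to 0.44 (drug-loaded MNs versus HS). With 3 samples in each group, these values cannot tell whether same-numbered samples shared a batch.

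Quantile normalization turned COL2A1 to -0.24 in 5-Fu injection versus HS and to -0.14 in drug-loaded MNs versus NS. In the latter comparison, scaling to the total of reads gave -0.056 for COL2A1 and -0.067 for COL9A2, and limma voom gave -0.050 and -0.070. With the covariate, COL9A2 turned to 0.40 and ACAN to 0.10 in HS versus NS, COL9A2 to -0.39, ACAN to -0.40 and SOX9 to -0.18 in drug-loaded MNs versus HS, COL9A2 to 0.071 in 5-Fu injection versus NS, and COL9A2 to -0.059, COL11A2 to -0.023, HAPLN1 to -0.087 and ACAN to -4e-04 in drug-loaded MNs versus 5-Fu injection. None of these passed in limma.

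With a sample left out, the log2 fold change of some genes took both signs, and the lowest and highest values follow. In HS versus NS these were COL2A1 (-1.77 to 0.16), COL9A2 (-1.06 to 0.61) and ACAN (-0.87 to 0.042). In drug-loaded MNs versus HS these were COL2A1 (-0.0022 to 1.93), COL9A2 (-0.51 to 1.34), ACAN (-0.27 to 0.65), HAPLN1 (-0.028 to 1.48) and SOX9 (-0.17 to 0.17). In 5-Fu injection versus HS these were COL2A1 (-1.19 to 1.09), COL9A1 (-0.71 to 1.45), COL9A2 (-1.12 to 0.56), COL11A2 (-0.0087 to 1.77), ACAN (-0.96 to 0.33), HAPLN1 (-0.46 to 1.04), MATN1 (-0.12 to 0.47) and SOX9 (-0.96 to 0.028). In drug-loaded MNs versus 5-Fu injection these were COL9A2 (-0.20 to 1.66), COL11A2 (-0.18 to 1.53), ACAN (-0.28 to 1.01), HAPLN1 (-0.13 to 1.05) and SOX9 (-0.026 to 0.96). In drug-loaded MNs versus NS these were COL2A1 (-0.51 to 0.89), COL9A1 (-0.61 to 0.54), COL9A2 (-0.70 to 1.15) and ACAN (-0.54 to 0.19). In 5-Fu injection versus NS these were COL2A1 (-1.89 to 0.15), COL9A2 (-1.21 to 0.17) and ACAN (-1.23 to 0.055).

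For the 58 genes of the cartilage-related lists, the 10 calls in HS versus NS became 6 to 12 with a sample left out (6 without NS replicate 1 or HS replicate 2), 14 with scaling to the total of reads and 15 with voom. The 3 calls in 5-Fu injection versus HS became 1 with a pseudocount of 0.1 or with scaling to the total of reads, and 0 without the filter, with the replicate block or with only the groups compared. They became 5 with the covariate, and 0 to 5 with a sample left out. Over all genes, the 665 DEGs of HS versus NS were 1060 with scaling to the total of reads and 1215 with voom, and 382 to 749 with a sample left out. The 304 of 5-Fu injection versus HS were 93 without the filter, 99 with the replicate block and 0 with only the groups compared, and 0 to 803 with a sample left out, and the 116 of drug-loaded MNs versus NS were 51 without the filter, 63 with voom and 23 with the replicate block, and 0 to 176 with a sample left out (0 without NS replicate 2), so that the background shares of both rest on single samples. With 7 of the 10 genes most like the members kept, the profile without MATN1 brought in WWP2, OMD and MELTF. The cause of these changes was not tested. The cartilage genes had at least 86 reads in each sample, and what limited the number of calls was not tested.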
